A study of Rattus norvegicus with 12 samples.

Results

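The genes of oxidative phosphorylation studied here are 90 protein-coding genes of the 23526 listed for rat lumbar spinal cord, of which 13 are encoded by the mitochondrial genome and 77 by the nucleus. The 13 are all protein-coding genes on the chromosome named MT. The 77 were chosen by symbol: the Ndufa, Ndufb, Ndufc, Ndufs and Ndufv series, the Sdh series, Uqcr, Cox4 to Cox8, and Atp5. A symbol listed more than once was taken at the row with the most counts. By complex, the nuclear members were 34 of complex I, 4 of complex II, 3 assembly factors of complex II, 7 of complex III, 15 of complex IV and 14 of complex V. The mitochondrial members were 7 of complex I, 1 of complex III, 3 of complex IV and 2 of complex V. The symbol rule does not take cytochrome c (Cycs), cytochrome c1 (Cyc1) or Ndufab1, whose values come with the neighbouring pathways. The rows named Ndufa7 and Ndufb2 carry the descriptions of other genes, CD320 and an aarF domain kinase, so what they count is uncertain.

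RNA from whole lumbar cord tissue of segments L3 to L5 was sequenced in 12 samples. They were 3 sham samples at day 0 and 3 samples each from days 3, 7 and 14 after spinal cord injury (SCI). The sources used here do not give strain, sex, age, the level or kind of injury, or whether samples of a group were separate animals. The p-values therefore cover the spread among these libraries alone, and that spread may be technical. Some libraries stand apart: SCI day 3 replicates 1 and 3 held neuronal marker RNA at 7.11% and 5.92% of the sham mean while replicate 2 held 89.8%, and SCI day 14 replicates 1 and 2 held raised sensory ganglion markers. Counts of members that passed or medians by genome are given with and without these libraries. Most values of single genes, complexes and neighbouring pathways are given with all libraries only. In whole tissue, fewer cells of a type and less RNA per cell cannot be told apart.

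Oxidative phosphorylation passes electrons from NADH (at complex I) and succinate (at complex II) through ubiquinone to complex III, cytochrome c and complex IV, where oxygen is reduced. Complexes I, III and IV pump protons across the inner mitochondrial membrane, and complex V, the ATP synthase, uses the gradient to make ATP. The mitochondrial genome encodes the most hydrophobic subunits of every complex except complex II. The nuclear genome encodes all others, and their promoters are known for sites of the factors NRF1, GABP (an ETS factor) and YY1. Neurons depend on this pathway for firing and synaptic transmission.

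Promoter windows of 300 bases (250 before and 50 after the start) were found in the RefSeq table for build GRCr8 for 68 of the 77 nuclear members. The letters GCGCATGCG (NRF1), CCGGAAG (ETS) and AAGATGGC (YY1) were searched on both strands. NRF1 letters stood in 6 of the 68 windows (8.82%) and in 1.52% of all 33469 windows of the table. ETS letters stood in 22 (32.4%, against 8.75% of all windows), and YY1 letters in 14 (20.6%, against 3.17%). The letters TCAAGGTCA, an ERR site, stood in 2 windows (2.94%, against 0.433%). The 5 letters CCAAT stood in 21 (30.9%, against 37.5%). At least 1 of the NRF1, ETS and YY1 motifs was in 34 windows, and all 3 were in that of 1 gene, Atp5me. The windows shown are those of Atp5me (subunit e of complex V; chr14:1464610-1464909, plus strand), of Uqcrc1 (a core subunit of complex III with the smallest p of all members at day 3; chr8:118467973-118468272, plus strand) and of Atp5pf (a stalk subunit of complex V; chr11:37375052-37375351, minus strand). Capitals mark these motifs, in either orientation, and the windows read 5′ to 3′ in the direction of the gene.
Atp5me: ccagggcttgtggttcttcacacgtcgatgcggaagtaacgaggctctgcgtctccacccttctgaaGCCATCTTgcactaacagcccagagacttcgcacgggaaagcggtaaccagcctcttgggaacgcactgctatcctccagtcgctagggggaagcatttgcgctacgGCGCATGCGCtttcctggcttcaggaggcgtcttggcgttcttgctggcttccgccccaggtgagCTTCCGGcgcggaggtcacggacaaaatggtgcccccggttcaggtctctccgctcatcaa
Uqcrc1: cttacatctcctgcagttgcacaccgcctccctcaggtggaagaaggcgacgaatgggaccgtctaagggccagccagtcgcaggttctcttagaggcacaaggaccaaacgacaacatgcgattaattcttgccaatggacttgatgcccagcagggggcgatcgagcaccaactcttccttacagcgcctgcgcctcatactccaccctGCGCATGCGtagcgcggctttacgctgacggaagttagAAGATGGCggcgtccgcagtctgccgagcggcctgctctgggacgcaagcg
Atp5pf: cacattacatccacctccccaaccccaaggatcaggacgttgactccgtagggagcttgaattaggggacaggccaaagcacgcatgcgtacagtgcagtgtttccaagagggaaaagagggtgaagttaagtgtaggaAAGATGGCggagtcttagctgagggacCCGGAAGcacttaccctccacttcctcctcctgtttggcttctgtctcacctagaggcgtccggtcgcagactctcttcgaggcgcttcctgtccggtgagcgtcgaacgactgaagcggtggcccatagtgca
The start of Atp5pf lies 163 bases from that of Gabpa, which is read in the opposite direction and encodes the DNA-binding subunit of GABP. Their windows share 262 bases, so the ETS and YY1 letters printed for Atp5pf lie in the window of Gabpa too. A match describes the letters and is not evidence of binding.

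Reads of the 13 mitochondrial genes made up 7.80% to 9.55% of the counts of the sham libraries, and those of the 77 nuclear genes 0.532% to 0.613%. Per length, as FPKM (counts scaled by gene length and library total) averaged over the 12 libraries, the mitochondrial genes were led by Mt-co1 (16453) and Mt-atp8 (14490), and the lowest was Mt-nd3 (320.7). Mt-co1 encodes the catalytic subunit of complex IV. The 2 highest nuclear members were the beta and alpha subunits of the catalytic head of complex V, Atp5f1b (425.9 FPKM) and Atp5f1a (226.7 FPKM). The highest of the other complexes were Cox6a1 (104.2 FPKM) for complex IV, Uqcrc1 (94.8 FPKM) for complex III, Sdhc (80.1 FPKM) for complex II and Ndufv2 (74.3 FPKM) for complex I. The mitochondrial row of the lowest level was thus below only Atp5f1b among nuclear members. Mt-atp8 overlaps Mt-atp6 over 43 bases of its span of 204, so its level per length is uncertain.

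At day 3 both genomes' transcripts were low in 2 of the 3 libraries and at sham level in the third. Summed CPM (counts scaled to a common library total) of the 13 mitochondrial genes was 95510, 77987 and 90943 in the sham libraries. It was 54016, 99024 and 51318 in SCI day 3 replicates 1, 2 and 3. Replicates 1 and 3 were thus at 61.3% and 58.2% of the sham mean, below every other library, and replicate 2 was at 112%. The nuclear sum was 5315, 5541 and 6129 CPM in sham and 4341, 5559 and 3508 CPM at day 3, or 76.7%, 98.2% and 62.0% of the sham mean. Replicates 1 and 3 were the lowest 2 of all 12 libraries here too.

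At day 7 the sums were within or above the sham range for the mitochondrial genes, with 105013, 101735 and 89309 CPM, and within it for the nuclear genes, with 5456, 5581 and 5344 CPM. At day 14 the mitochondrial sum was 79270, 62684 and 94339 CPM and the nuclear sum 5473, 4427 and 5287 CPM. Replicate 2 was the low library of day 14, at 71.1% of the sham mean for the mitochondrial genes and 78.2% for the nuclear genes. The ratio of the mitochondrial to the nuclear sum averaged 15.6 ± 2.06 for sham (SD, n = 3). For days 3, 7 and 14 the ratio averaged 15.0 ± 2.70, 18.1 ± 1.28 and 15.5 ± 2.04 (SD, n = 3 per group). It ran from 12.4 to 19.2 over the 12 libraries and overlapped between sham and each day.

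**Figure D1:**
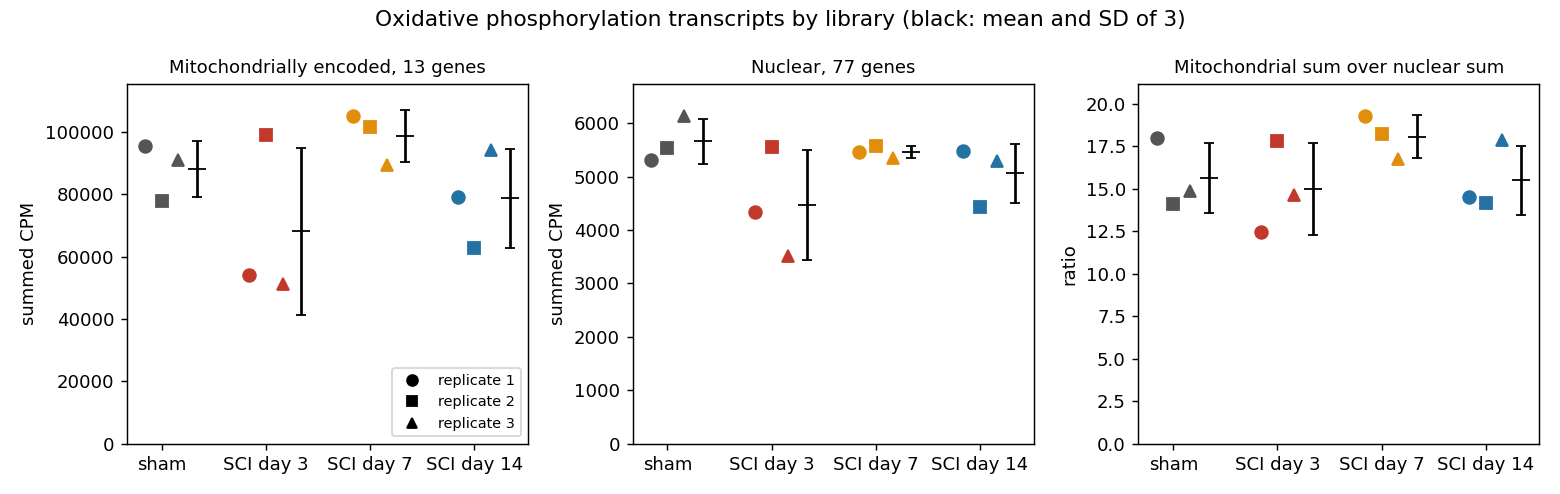
Summed CPM of the 13 mitochondrial genes (left) and the 77 nuclear genes (middle), and their ratio (right), for each of the 12 libraries by group, with the mean and SD of 3 in black. In SCI day 3, replicates 1 and 3 lie below the sham libraries in both sums (54016 and 51318 CPM for the mitochondrial genes) and replicate 2 does not (99024 CPM).

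With all 12 libraries in the fit, none of the 90 members passed edgeR's test at day 3 (adjusted p under 0.05), where 6.70% of the 18714 genes tested passed. That count over all genes, 1254, rests on single libraries. It was 7087 without SCI day 3 replicate 2, and 524 to 749 when sham replicate 2, SCI day 7 replicate 1 or 3, or SCI day 14 replicate 1 or 2 was left out. It was 6 and 1 without sham replicates 1 and 3, 8 and 10 without SCI day 3 replicates 1 and 3, 13 without SCI day 7 replicate 2 and 18 without SCI day 14 replicate 3. With the replicate number as a block it was 8, and with only the groups compared in the fit it was 1. At an unadjusted p under 0.05 stood 24 members, all nuclear, or 26.7% against 35.3% of all genes. The same counts gave 20 members lower with DESeq2 (22.2%, against 11.4% of all genes) and 1 higher (against 15.9% of all genes), and 38 lower with limma voom with sample weights (42.2%, against 15.6%). The smallest adjusted p with edgeR was 0.0652, for Uqcrc1. The median log2 fold change of the mitochondrial genes was −0.42 with 13 of 13 below 0. That of the nuclear genes was −0.28 with 65 of 77 below 0, and that of all genes tested was 0.03. The typical standard error (SE) was larger for the mitochondrial genes (median 0.30) than for the nuclear genes (median 0.19).

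The day 3 count changed without replicate 2. When that library was left out, a setting that leaves 2 libraries in the group, 48 members fell (53.3%, against 18.0% of all genes falling): all 13 mitochondrial genes and 35 nuclear genes. The 35 were 18 of 34 in complex I, 4 of 4 in complex II, 0 of 3 assembly factors, 3 of 7 in complex III, 6 of 15 in complex IV and 4 of 14 in complex V. The median log2 fold change was then −0.77 for the mitochondrial and −0.44 for the nuclear genes. With replicate 2 as the lone day 3 library, a setting chosen after seeing the data in which it is assumed to vary like the other groups, 0 members passed, and the medians were 0.08 and −0.00. Leaving out any other single library also gave 0 members at day 3.

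At day 7 and at day 14 none of the 90 members passed edgeR's test against sham, where 0.0160% of all genes passed on each day. Unadjusted p was under 0.05 for 3 members at day 7 (9.89% of all genes) and for 1 at day 14 (7.40% of all genes). DESeq2 and limma voom also called 0 members on both days. All 13 mitochondrial genes had a log2 fold change above 0 at day 7 (median 0.15) and below 0 at day 14 (median −0.21). The nuclear medians were 0.04 and −0.17, with 66 of 77 below 0 at day 14, and those of all genes were −0.02 and 0.01. All 3 days share the sham libraries.

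**Figure D2:**
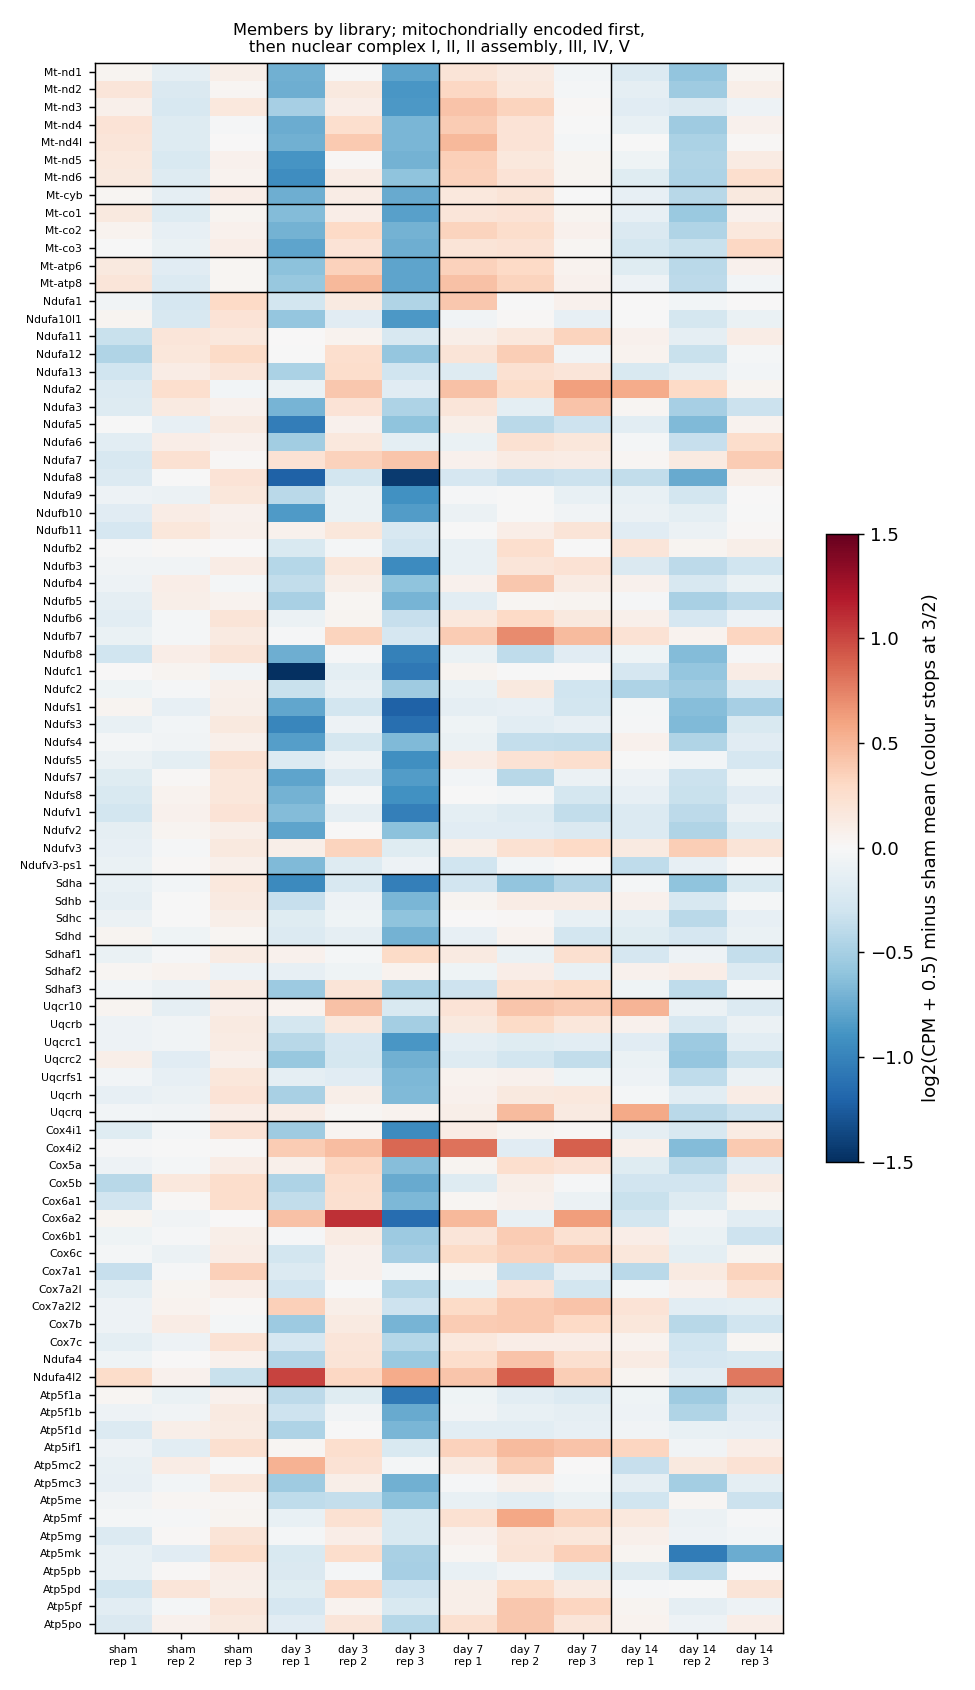
The members (rows, 1 not drawn, grouped by genome and complex) in each of the 12 libraries (columns), as log2(CPM + 0.5) minus the mean of the sham libraries. Blue (low) columns include SCI day 3 replicates 1 and 3, where the mitochondrial genes and most complex I and II genes are low. SCI day 14 replicate 2 is low too, with summed CPM at 71.1% of the sham mean for the mitochondrial genes and 78.2% for the nuclear genes.

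Among mitochondrial complex I genes, Mt-nd1 was at 6041, 5329 and 6242 CPM in sham, 3560, 5849 and 3396 at day 3, 6717, 6413 and 5694 at day 7 and 5078, 3892 and 5977 at day 14. Its log2 fold change at day 3 was −0.50 ± 0.26 (SE; adjusted p = 0.186), and −0.79 without replicate 2 (adjusted p = 0.0180). Mt-nd5 was at −0.52, and the others of the 7 lay between −0.29 and −0.50 at day 3. Mt-nd6, which lies on the opposite strand from the other mitochondrial protein genes, was at −0.45. Mt-cyb, the cytochrome b of complex III, was at −0.44. Mt-co1, Mt-co2 and Mt-co3 of complex IV were at −0.45, −0.33 and −0.40, and Mt-atp6 and Mt-atp8 of complex V at −0.31 and −0.23. The whole set spanned −0.52 to −0.23. The typical SE of 0.30 is that of each gene against sham, not of a difference between genes. The order among the 13 was not tested. At day 7 the span was 0.05 to 0.24 and at day 14 −0.28 to −0.12.

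In complex I the nuclear-encoded catalytic core had lower medians than the accessory subunits on each day. The 6 core genes described here (Ndufs1, Ndufs3, Ndufs7, Ndufs8, Ndufv1 and Ndufv2) belong to the arm that passes electrons from NADH to ubiquinone. Their median log2 fold changes were −0.62, −0.22 and −0.30 at days 3, 7 and 14, with 6 of 6 below 0 each time and all 6 at an unadjusted p under 0.05 at day 3. These 6 leave out 1 core gene, the member whose values are not reported here. Over all 7 core genes, 6 were below 0 and 1 above on each day, and the medians were −0.62, −0.22 and −0.28. The 27 accessory genes had medians of −0.33, 0.04 and −0.17, with 24, 11 and 22 below 0. They include the uncertain rows Ndufa7 and Ndufb2. They also include Ndufv3-ps1, a pseudogene by its symbol, which reached at most 0.86 CPM and lies inside the span of Klhl12 on the opposite strand. The difference between these subsets was not tested. Summed, the 6 core genes were at 58.3%, 89.5% and 49.7% of their sham mean in the day 3 libraries, replicates 1, 2 and 3.

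Ndufs1, the largest core subunit, was at 206, 185 and 213 CPM in sham and at 117, 166 and 86.1 CPM at day 3, with no overlap. Its log2 fold change was −0.75 ± 0.23 (SE; adjusted p = 0.0656), and −0.22 and −0.41 at days 7 and 14. Ndufa8, an accessory subunit, had the lowest log2 fold change of all members at day 3, −0.94 ± 0.29 (SE; adjusted p = 0.0662). It was at 77.2, 89.2 and 103 CPM in sham, 38.3, 73.9 and 32.7 at day 3, 74.9, 69.9 and 71.2 at day 7, and 68.8, 52.8 and 94.0 at day 14. All day 3 and day 7 libraries of Ndufa8 were below all sham libraries, and replicate 2 was the highest of day 3. Ndufc1, another accessory subunit, was at 5.27, 14.9 and 7.60 CPM at day 3 against 15.9 to 17.1 CPM in sham. The lowest member of complex I at day 14 was Ndufc2, at 31.7, 30.0 and 37.9 CPM against 41.9 to 46.3 CPM in sham (log2 fold change −0.44, adjusted p = 0.594). Ndufa2 and Ndufb7 lay on the other side: Ndufb7 was at 16.2 to 19.1 CPM in sham and 22.7 to 28.8 CPM at day 7 (0.49, adjusted p = 0.367), and Ndufa2 was at 0.43 at day 7 and 0.29 at day 14. Ndufs7 lies wholly inside the row of Dazap1 on the same strand, and the sources used here do not say how reads of overlapping genes were assigned. It was at 58.8, 67.8 and 75.1 CPM in sham and 38.6, 58.2 and 37.3 CPM at day 3 (−0.63, adjusted p = 0.0655).

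Complex II, which has no mitochondrial gene, was below sham in all 4 subunits at day 3, with a median of −0.39. No subunit passed edgeR's test with all libraries, and all 4 did without SCI day 3 replicate 2. DESeq2 called Sdha (adjusted p = 0.0130), Sdhb (0.0329) and Sdhd (0.0344) lower, and limma voom called all 4 lower. Sdha, the flavoprotein that oxidises succinate, was at 306, 321 and 368 CPM in sham, 171, 279 and 162 at day 3, 271, 219 and 245 at day 7 and 324, 218 and 283 at day 14. Its log2 fold change was −0.74 ± 0.23 (SE; adjusted p = 0.0668) at day 3 and −0.48 at day 7, the lowest of all members on that day. All libraries of days 3 and 7 lay below all sham libraries for Sdha. Sdhc and Sdhd, the membrane anchors, were at −0.31 and −0.38 at day 3, and Sdhb, the iron-sulfur subunit, at −0.40. Part of the Sdhb span is shared with Atp13a2 on the same strand. The assembly factors Sdhaf1, Sdhaf2 and Sdhaf3 were at 0.08, −0.08 and −0.30, and Sdhaf2 kept to 57.1 to 70.7 CPM over all 12 libraries.

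In complex III, the core subunits Uqcrc1 and Uqcrc2 carried the lowest values. Uqcrc1 was at 174, 177 and 200 CPM in sham, 137, 154 and 99.6 at day 3, 167, 162 and 164 at day 7 and 163, 126 and 164 at day 14, below all sham libraries on each day. Its log2 fold changes were −0.54 ± 0.16, −0.20 ± 0.16 and −0.33 ± 0.16 (SE; adjusted p = 0.0652, 0.741 and 0.711). Uqcrc2 was at −0.55, −0.33 and −0.37. Uqcrfs1, the Rieske iron-sulfur protein, was at −0.36 at day 3. The small subunits Uqcr10 and Uqcrq were at 0.07 and 0.03 at day 3 and at 0.30 and 0.20 at day 7.

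Complex IV was closest to sham at day 3 among the electron transport complexes in its nuclear members (median −0.20) and highest at day 7 (median 0.23, 11 of 15 above 0). The order of the complexes was not tested, and the typical SE of these members at day 3 was 0.22. Without SCI day 3 replicate 2 the nuclear medians were −0.39 for complex IV and −0.44 for complex III. Of the paired isoforms of complex IV, Cox4i1, the common form of subunit 4, was at 172, 191 and 227 CPM in sham and 135, 201 and 102 CPM at day 3 (−0.47 ± 0.22, SE; adjusted p = 0.147). Cox4i2, its isoform of lung and low oxygen, was at 1.18, 1.18 and 1.21 CPM in sham and 1.69, 1.84 and 2.56 CPM at day 3 (0.74 ± 0.47, SE; adjusted p = 0.272). Ndufa4l2, a paralogue of Ndufa4 known to be induced by low oxygen, was at 2.09, 1.75 and 1.20 CPM in sham and 3.83, 2.15 and 2.67 CPM at day 3 (0.74, adjusted p = 0.187). Ndufa4 itself was at −0.27 at day 3 and 0.27 at day 7. Both Cox4i2 and Ndufa4l2 lay above all sham libraries at day 3 (13.3% of the 15, against 21.2% of all genes). Cox6a2 and Cox7a1, the isoforms of heart and skeletal muscle, were at most 1.87 and 3.13 CPM in any library, and Cox6a1 was at 45.8 to 88.0 CPM. The 6 nuclear complex IV members above all sham libraries at day 7 (40% of the 15, against 13.9% of all genes) were Cox6b1, Cox6c, Cox7a2l2, Cox7b, Ndufa4 and Ndufa4l2.

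The nuclear members of complex V had medians of −0.18, 0.11 and −0.12 at days 3, 7 and 14. Atp5f1a, the alpha subunit, was at 655, 599 and 674 CPM in sham and 490, 564 and 306 at day 3 (−0.55 ± 0.21, SE; adjusted p = 0.102). Atp5f1b, the catalytic beta subunit, was at 837, 853 and 972 CPM in sham and 715, 856 and 524 at day 3 (−0.39, adjusted p = 0.161). Its span overlaps that of Baz2a on the same strand. Atp5me, whose promoter is printed above, was at 2.15, 2.30 and 2.32 CPM in sham and 1.62, 1.65 and 1.29 CPM at day 3 (−0.61, adjusted p = 0.112). Atp5if1, the inhibitor of reverse ATPase activity, was at 18.8 to 25.0 CPM in sham and 26.9 to 29.5 CPM at day 7 (0.37, adjusted p = 0.501). The c-ring genes Atp5mc2 and Atp5mc3 were at 0.21 and −0.39 at day 3. Atp5mk, a small membrane subunit, had the lowest value of day 14, −0.60, with 7.30, 3.16 and 4.03 CPM against 6.25 to 8.66 CPM in sham.

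**Figure D3:**
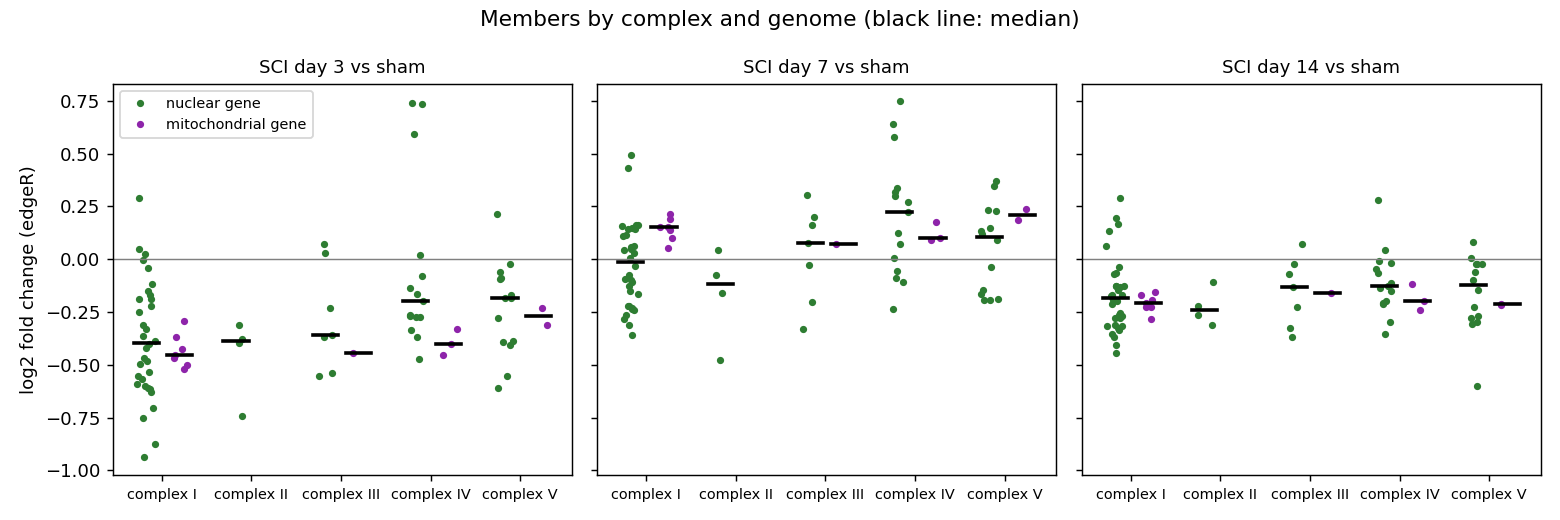
log2 fold change of each member against sham at days 3, 7 and 14 (panels), by complex, with nuclear genes in green, mitochondrial genes in purple and medians as black lines; the 3 complex II assembly factors and 1 nuclear complex I gene are not drawn. At day 3 the medians lie below 0 in every complex and genome, from −0.45 for mitochondrial complex I to −0.18 for nuclear complex V.

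Counted by separation from sham, 15 nuclear members were below all sham libraries in all day 3 libraries (16.7% of the 90 members, against 15.9% of all genes) and 3 were above (3.33%, against 21.2%). At day 7 the counts were 8 below (8.89%, against 9.73%) and 13 above (14.4%, against 13.9%), and at day 14 they were 9 of 90 below (against 4.77% of all genes) and 2 above (2.22%, against 11.0%). No mitochondrial gene was separated from sham on any day. Atp5me, Ndufa8, Ndufs1, Ndufs4, Sdha, Uqcrc1 and Uqcrc2 were below on both days 3 and 7, and Uqcrc1 on day 14 too.

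Between the injury days, edgeR called 0 of 90 members in each pair, and 0% of all genes. With all libraries, day 7 had median log2 fold changes of 0.52 for the mitochondrial and 0.32 for the nuclear genes against day 3, and 83 of 90 members above 0. Unadjusted p was under 0.05 for 19 members, or 21.1% against 14.8% of all genes. All 19 were higher, and of the 2773 such genes over all, 998 were higher and 1775 lower. DESeq2 called 1 member higher (against 0.615% of all genes). All day 7 libraries were above all day 3 libraries for 18 members (against 6.0% of all genes), among them Mt-nd5, Sdhb, Uqcrc1, Cox6c and Cox7b, and below them for 1, Ndufa7 (against 7.76%). Without SCI day 3 replicate 2, 41 members rose from day 3 to day 7 (all 13 mitochondrial and 28 nuclear; 45.6%, against 11.4% of all genes rising). In that setting 14 nuclear and no mitochondrial members rose from day 3 to day 14 (15.6%, against 12.9% of all genes). With SCI day 3 replicates 1 and 3 left out instead, a setting chosen after seeing the data, 0 members passed in either pair. The medians from day 3 to day 7 were then 0.01 for the mitochondrial and 0.04 for the nuclear genes, and from day 3 to day 14 they were −0.27 and −0.14. From day 7 to day 14, the medians were −0.34 and −0.16. They were −0.13 and −0.16 without SCI day 14 replicates 1 and 2. That setting was chosen after seeing the data and leaves 1 library in the group. With none left out, all day 14 libraries were below all day 7 libraries for 22 members (24.4%, against 4.26% of all genes) and above them for 0 (against 5.77%). The 22 were Mt-atp8, Mt-nd3 and 20 nuclear genes, among them Cox6b1, Cox6c, Cox7b, Cox7c, Ndufb4, Ndufb7, Uqcrfs1, Sdhc, Atp5mf and Atp5pf. Cox7b was at 33.7, 34.2 and 31.8 CPM at day 7 and 29.2, 19.2 and 21.0 CPM at day 14. From day 3 to day 14 the medians were 0.22 and 0.13, and 0.41 and 0.12 without SCI day 14 replicates 1 and 2. With none left out, 2 members were separated upwards, Atp5me and Ndufb2 (against 6.78% of all genes), and 1 downwards, Sdhaf1 (against 9.62%). Unadjusted p was under 0.05 for 5 members from day 7 to day 14 and for 3 from day 3 to day 14, with 3.67% and 17.9% of all genes.

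Neuronal markers were low in the same day 3 libraries. The summed level of the 13 neuronal markers, all found in the table and none at 0 in any group, was 8704 to 11724 CPM in sham, 8362 to 12554 CPM at day 7 and 7251 to 10592 CPM at day 14. In SCI day 3 it was 762, 9619 and 634 CPM in replicates 1, 2 and 3. The mitochondrial and nuclear sums in replicates 1 and 3 stood at 58.2% to 76.7% of the sham mean, so they were lower by far less than the neuronal sum. SCI day 14 replicate 2, the low library of that day, had 9183 CPM of neuronal markers. The part of the neuronal markers in the day 3 values was not tested.

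Markers of other cell types differed between libraries as well, and their part in the results was not tested. At day 3 edgeR called 3 of 8 astrocyte and 2 of 8 oligodendrocyte markers lower, and 6 of 7 endothelial and 3 of 8 pericyte and smooth muscle markers higher. Over all genes tested, 1.2% were called lower and 5.5% higher, and those counts rest on single libraries. The marker calls are not given with libraries left out. Microglia and macrophage markers (10 of 10 in the table) summed to 305 to 438 CPM in sham, 492 to 1973 at day 3, 1073 to 1952 at day 7 and 415 to 1886 at day 14. Endothelial markers (7 of 8) summed to 274 to 384 CPM in sham and 599 to 1559 CPM at day 3. Pericyte and smooth muscle markers (8 of 8) summed to 254 to 352 CPM in sham and 478 to 919 CPM at day 3. Astrocyte markers summed to 3580 to 6178 CPM in sham, 1858 to 5760 CPM at day 3 and 9736 to 11791 CPM at day 7. The day 7 sum does not stand for the whole list. On that day 5 of the 8 markers had a log2 fold change below 0 (median −0.22), and edgeR called 0. Schwann cell markers (8 of 8) can come from nerve root, whose presence in the samples was not tested. They ran from 2869 to 57635 CPM over the libraries, and were highest in SCI day 3 replicate 3 and sham replicate 2. Sensory ganglion markers (8 of 8, with Prdm12 at 0 in sham) were at 34.1 to 64.2 CPM in sham and at 197 CPM in SCI day 3 replicate 2, and at 421 and 756 CPM in SCI day 14 replicates 1 and 2. A setting without those 2 day 14 libraries was added after seeing the data and leaves only SCI day 14 replicate 3 in its group. The day 14 medians against sham were then −0.02 for the mitochondrial and −0.15 for the nuclear genes. With all libraries they were −0.21 and −0.17. Skeletal muscle markers (9 of 10) were highest in SCI day 7 replicate 2, with 213 CPM, and reached no more than 37.1 CPM in other libraries, and erythrocyte markers (6 of 9) reached 15144 CPM in SCI day 7 replicate 1.

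**Figure D4:**
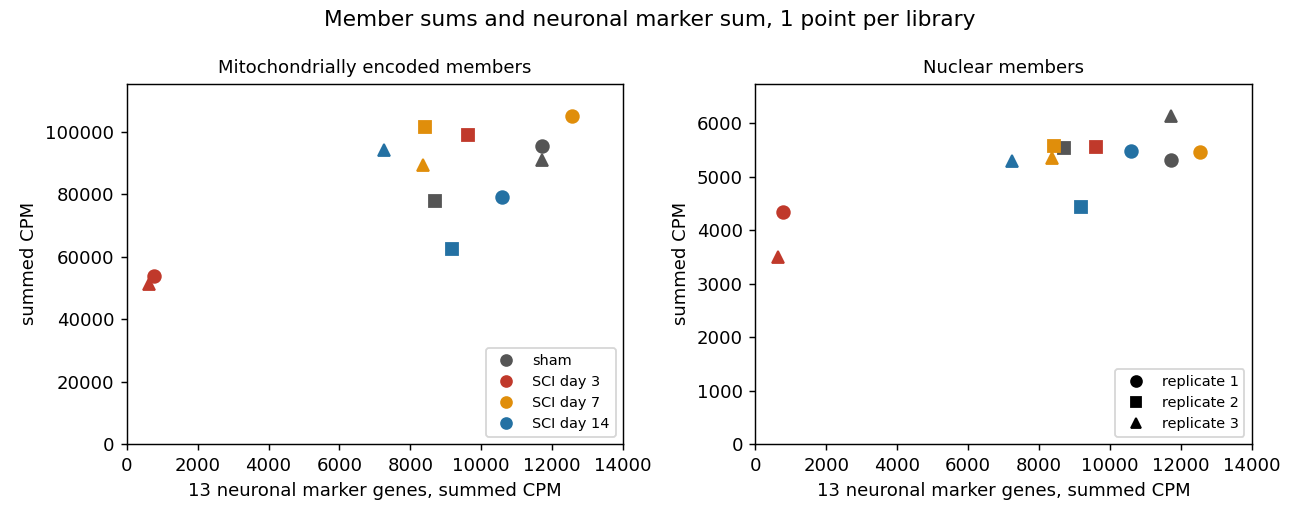
Summed CPM of the mitochondrial (left) and nuclear (right) members against the summed CPM of 13 neuronal markers, with 1 point per library, colour for the group and shape for the replicate number. SCI day 3 replicates 1 and 3 lie alone at 762 and 634 CPM of neuronal markers, and the other 10 libraries lie between 7251 and 12554 CPM.

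Genes around the pathway had few calls at day 3 with edgeR, and none at days 7 and 14. Over all genes tested at day 3, 5.5% were called higher (1030 genes) and 1.2% lower (224 genes). The tricarboxylic acid cycle, which feeds electrons to complexes I and II, had 0 of 18 called at day 3 with 18 of 18 below 0 and a median of −0.48. Assembly factors of the complexes had 0 of 37 called (median −0.28), and inner membrane carriers and porins 0 of 13 (median −0.43). Electron carriers and subunits that the symbol rule misses had 0 of 11 called (median −0.12). Among them Cyc1 was at −0.51 (adjusted p = 0.0773), Cycs at −0.22 and Ndufab1 at −0.38. Antioxidant enzymes of mitochondria had 0 of 9 called (median −0.03). Of the genes for inner membrane structure and dynamics 1 of 22 rose, the prohibitin Phb2 (0.63, adjusted p = 0.0474), and their median was −0.18. With 1 library left out, Phb2 passed in 1 of the 12 settings, that without SCI day 3 replicate 2, and its adjusted p reached 0.173.

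Of 20 regulators of mitochondrial biogenesis, 2 were called higher at day 3 (against 5.5% of all genes). They were Pprc1 (1.31 ± 0.33, SE; adjusted p = 0.0463) and Gabpa (0.87 ± 0.21, SE; adjusted p = 0.0430). Pprc1 is a coactivator related to PGC-1 alpha, and was at 27.9, 21.0 and 26.8 CPM in sham and 86.0, 38.2 and 68.7 CPM at day 3. Gabpa was at 22.0, 26.2 and 22.8 CPM in sham and 56.8, 30.3 and 46.0 CPM at day 3. For both genes replicates 1 and 3 were the higher and replicate 2 was still above sham. With 1 library left out, Gabpa passed in 1 of 12 settings (adjusted p 0.00126 to 0.165) and Pprc1 in 3 of 12 (adjusted p 0.00332 to 0.165), and with the replicate block their adjusted p was 0.0873 and 0.0833. Ppargc1a, which encodes PGC-1 alpha itself, was at 14.9, 13.3 and 18.5 CPM in sham and 2.49, 10.2 and 6.30 CPM at day 3 (−1.33, adjusted p = 0.0916). Nrf1 was at 0.50 (adjusted p = 0.0688), and Tfam, the factor that packages mitochondrial DNA, at 0.40 (adjusted p = 0.132). The mitochondrial RNA polymerase Polrmt was at −0.32. Of 25 genes that maintain mitochondrial DNA and RNA, 1 was called higher (against 5.5% of all genes), and their median was 0.16. It was Mterf3, a repressor of mitochondrial transcription (0.58, adjusted p = 0.0387). Mterf3 passed in 1 of the 12 settings with a library left out. Lrpprc, which stabilises mitochondrial mRNA, was at −0.32. Of the 71 genes of mitochondrial ribosomal proteins tested, 2 were called higher at day 3 (2.82%, against 5.5% of all genes) and 0 lower, and their median was 0.03.

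Glycolysis had 3 of 23 called at day 3, all higher (against 5.5% of all genes called higher), with a median of −0.24. They were Ldha, which makes lactate from pyruvate (2.21, adjusted p = 0.0332), Slc2a1, a glucose transporter (1.12, adjusted p = 0.0392), and Slc16a3, a lactate exporter (2.70, adjusted p = 0.0477). Ldha was at 67.1, 124 and 86.2 CPM in sham and 413, 214 and 674 CPM at day 3, above all sham libraries in each of the 3 libraries, replicate 2 included. With 1 library left out, Ldha passed in 6 of 12 settings, Slc2a1 in 2 and Slc16a3 in 1. Their log2 fold changes stayed above 0 in all 12, from 1.69 to 2.54 for Ldha, and with the replicate block their adjusted p was 0.0731, 0.0760 and 0.0791.

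Grouped by the letters in their promoters, at day 3 the members with ETS letters had a median log2 fold change of −0.28 (22 genes) and those without −0.31 (46 genes). With YY1 letters the median was −0.32 (14 genes), against −0.29 without. With NRF1 letters it was −0.14 over 6 genes, from −0.61 to 0.21, within the range of the others. Atp5pf, which shares a promoter region with Gabpa, was at −0.18 ± 0.14 (SE; adjusted p = 0.375). Across the 77 nuclear members, Spearman's rho between the length of the gene model and the log2 fold change was −0.30 at day 3, −0.41 at day 7 and −0.08 at day 14, and across all 18714 genes it was −0.04, −0.09 and −0.01. These points share the same libraries, and genes are not independent replicates. At days 3 and 7 longer nuclear members tended to lie lower and shorter ones higher.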

How the data were processed

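RNA was sequenced from 12 lumbar cord samples in 4 groups of 3. Per the file headers, the deposited table holds raw read counts for each gene and FPKM values that the authors scaled by gene length and library total. Per the labels' protocols, libraries were made from total RNA with a SMARTer mRNA-Seq kit. The sources used here do not give the aligner, the counting tool or the handling of overlapping genes. Per the submitters' processing notes the builds are GRCm38 and mm10, mouse builds, while the identifiers are rat Ensembl identifiers, so no coordinates of the table are given.

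Total counts ran from 63010295 to 79072710 per library. The closest pair of libraries differed by a chi-square per gene of 63.3, so none was a copy. Genes were filtered with edgeR's filterByExpr (18714 kept, all 90 members among them; 4812 removed), scaled with TMM, and tested with edgeR 4.0.16 (R 4.3.3) quasi-likelihood tests on all 12 libraries (8 residual degrees of freedom), with Benjamini-Hochberg adjustment over all genes and a limit of 0.05. The SE was taken from the log2 fold change and the F statistic, so it restates the test. CPM uses total counts without TMM. The test was tested on simulated data. Promoter letters come from RefSeq's table, and a symbol with several rows was taken at the row with the most counts.

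Members, lists and tests were chosen with earlier results of these data known. Named genes were all mitochondrial members, the 2 highest in FPKM per complex, isoform pairs and the 3 largest moves each way per day; core genes, genes of the printed promoters and of overlapping rows, and the others named were added after their values were seen. Alternatives were DESeq2 1.42.0, limma voom 3.58.1, other scalings and filters, the replicate block, a fit restricted to the groups compared, and omission of each library. Alternatives added after seeing the data are named where used. Values of 1 member are not reported here, though it stays in the counts, sums and medians. Same-numbered libraries of different groups correlated over 0.1 in 6 of 18 pairs, so the numbers were not used as pairs.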

Additional observations from a re-analysis of the deposited data

Results flagged for a closer look

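The rows of mitochondrial ribosomal RNA are not members and entered no comparison above. Their reads per 100 reads of the 13 mitochondrial protein genes were 2.16 to 2.46 in the sham libraries, and 5 injured libraries lay above that range. They were SCI day 3 replicate 3 with 5.52, SCI day 3 replicate 1 with 3.55, SCI day 14 replicate 2 with 2.76, SCI day 7 replicate 1 with 2.57 and SCI day 7 replicate 3 with 2.48. The 3 highest were the libraries with the lowest sums of mitochondrial protein genes. That sum is the divisor of this measure, so a low sum by itself raises it. In CPM the 2 rRNA rows summed to 2062, 1729 and 2237 in sham and to 1919, 2354 and 2830 at day 3, so the day 3 sums overlapped those of sham. The longer rRNA row (AY172581.24) had a log2 fold change of 0.33 ± 0.23 at day 3 with edgeR (SE; adjusted p = 0.312), and the shorter (AY172581.9) of −0.01.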

How the results depend on the processing

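Counts of members that passed at day 3 were 0 under the other scalings, both other filters and the fit of only the groups compared, 21 with DESeq2 and 38 with limma voom, and 0 to 48 with 1 library left out. From day 3 to day 7 they were 1 with DESeq2 and 0 to 41 with 1 library left out, and from day 3 to day 14 they were 0 to 14. The values above 0 with a library left out all came from leaving out SCI day 3 replicate 2. For days 7 and 14 against sham and for day 14 against day 7, 0 members passed under every alternative run. Under the paired analysis with the replicate number as a block 0 members passed in each of the 6 comparisons. Same-numbered libraries had correlations from −0.34 to 0.25, and 3 of 12 libraries correlated best with their own number.

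The summed shares of counts against sham, as log2 differences, were −0.43, 0.16 and −0.18 for the mitochondrial genes at days 3, 7 and 14 and −0.36, −0.05 and −0.16 for the nuclear genes. The nuclear value of day 7 was 0.0858 when taken as the mean over genes of log2 CPM, which weighs low genes as much as high ones. Leaving out 1 library gave −0.74 to −0.26 for the mitochondrial and −0.53 to −0.20 for the nuclear genes at day 3. In all, 191 of the alternative values kept their side or stayed within the spread between libraries, and 7 moved. Depth limits members of few CPM, such as Cox6a2, which was at most at 1.87 CPM.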
